A study of Mus musculus with 11 samples.

Results

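The 10 genes Pecam1, Cdh5, Cldn5, Esam, Emcn, Tek, Tie1, Eng, Egfl7 and Nos3 were followed in the hearts of 11 mice. All of them mark endothelial cells, and some build endothelial junctions. They were picked by symbol as rows of the count table, and all 10 were found among its 22608 genes and passed the filter on low counts that 11319 genes passed. Endothelial cells line the blood vessels and the heart chambers, and in the ventricle most of them form the capillaries that run between the cardiomyocytes. They hold to each other through adherens junctions, built on VE-cadherin (the product of Cdh5), and through tight junctions, in which claudin-5 (Cldn5) is the main endothelial claudin. PECAM-1 (Pecam1) and ESAM (Esam) are adhesion molecules of the same cell borders. Tie2 (Tek) is the receptor tyrosine kinase for the angiopoietins, Tie1 is its partner receptor without a ligand of high affinity of its own, and endoglin (Eng) is a co-receptor for BMP9, BMP10 and TGF-beta. Egfl7 encodes a secreted protein of the vessel wall, Emcn the sialomucin endomucin of capillary and venous endothelium, and Nos3 the endothelial nitric oxide synthase.

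All mice were male, on the C57BL/6J background and aged 8 to 16 weeks, and they received daily intraperitoneal injections for 10 days. WT VEH (2 mice) and WT JZL184 (3 mice) were wild-type littermates given vehicle or JZL184 at 8 mg/kg, an inhibitor of monoacylglycerol lipase, the enzyme that breaks down the endocannabinoid 2-arachidonoylglycerol. CD VEH and CD JZL184 (3 mice each) carried the complete deletion, a heterozygous loss of an interval on chromosome 5, the mouse counterpart of the region deleted in Williams-Beuren syndrome. The deletion is present in every cell type, and the drug was given to the whole animal. The labels name the tissue as heart and its source as ventricle, and their treatment field calls the vehicle mice untreated. Single mice are named here by the letters of the count table's columns. The deposited values are estimated counts per gene, and levels are given as CPM, read counts scaled to a common library size with TMM factors.

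The libraries held 69660329 to 92251550 counts, and 3 counts corresponded to 0.0305 to 0.0433 CPM, which covers counting error only. Of the genes in the deleted interval, 14 were tested and in all 14 the highest CD mouse was below the lowest WT mouse. None of the 10 endothelial genes lies in that interval, and Nos3 is on the same chromosome outside it. Mouse A of CD VEH stood apart in red-cell genes, whose summed level was 18786 CPM there and 1416 to 5498 CPM in the other mice. The mice of a group are separate animals, and each was taken as a replicate.

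The genes lie on 8 chromosomes of GRCm38, namely Pecam1 at chr11:106654217-106750628, Cdh5 at chr8:104101625-104144511, Cldn5 at chr16:18776847-18778262, Esam at chr9:37528078-37538319 and Emcn at chr3:137341067-137432185. Tek is at chr4:94739289-94874976, Tie1 at chr4:118471191-118490061, Eng at chr2:32646595-32682669, Egfl7 at chr2:26580014-26593120 and Nos3 at chr5:24364810-24384474. Counts cover whole genes, so exons of a neighbour can share reads where they overlap, and whether the libraries kept strand is not given in the sources used here. Exons of Nos3 share 294 bases with Atg9b on the other strand, which averaged 73.1 counts a mouse beside 2803 for Nos3, and 1040 bases with the antisense gene Gm15587, which was not analysed here. Exons of Egfl7 share 264 bases with Gm20532 on the same strand, which averaged 12.7 counts, and 64 bases with Agpat2 on the other strand, which averaged 2737 counts beside 7313 for Egfl7.

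RefSeq start sites of GRCm38.p6 were at hand for 6 of the 10 genes (Tek, Tie1, Eng, Egfl7, Cldn5 and Emcn), with 8 windows since Egfl7 has 3 starts. Pecam1, Cdh5, Esam and Nos3 had no entry. The 250 bases before the start are printed for Emcn (chr3:137340828-137341077), Egfl7 (the most upstream of its starts, chr2:26580833-26581082) and Cldn5 (chr16:18776597-18776846), the 3 genes with the largest differences below, all on the plus strand, 5′ to 3′. Capitals mark AGGAAG, a core that ETS factors bind, and AACAGGAA, in which its GGAA stands beside part of a forkhead motif, on either strand. The motif CCACCC, which KLF factors bind, was searched too. So was AGATAA, a core of the zinc-finger factors that take their name from it. The last one searched was TATAAA, found in many promoters near the start, and none of these further motifs is in the 3 windows.
Emcn: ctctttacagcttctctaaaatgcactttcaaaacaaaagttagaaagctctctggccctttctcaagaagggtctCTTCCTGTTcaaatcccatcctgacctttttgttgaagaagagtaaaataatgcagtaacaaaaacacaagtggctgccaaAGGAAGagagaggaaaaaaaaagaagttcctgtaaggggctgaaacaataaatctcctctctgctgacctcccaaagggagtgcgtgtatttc
Egfl7: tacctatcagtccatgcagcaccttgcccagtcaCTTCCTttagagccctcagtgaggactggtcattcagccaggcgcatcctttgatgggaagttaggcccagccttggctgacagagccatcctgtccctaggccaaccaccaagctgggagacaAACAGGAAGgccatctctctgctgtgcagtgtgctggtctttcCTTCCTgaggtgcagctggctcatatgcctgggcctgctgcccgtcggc
Cldn5: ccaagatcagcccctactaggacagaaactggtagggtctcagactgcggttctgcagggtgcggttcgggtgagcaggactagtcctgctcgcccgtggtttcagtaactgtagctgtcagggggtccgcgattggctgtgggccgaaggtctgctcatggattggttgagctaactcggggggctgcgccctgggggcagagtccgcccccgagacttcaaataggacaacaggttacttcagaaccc

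AGGAAG stood in 5 of the 8 windows, beside 29.5% of 32851 windows of the same length, and AACAGGAA in 2 of the 8, beside 2.25%. Both windows with AACAGGAA, those of Emcn and Egfl7, are shown above, and in each of them it overlaps one AGGAAG. The motif CCACCC stood in 3 of the 8 windows (28.1% of all windows), AGATAA in none of them (9.99%) and TATAAA in none of them (12.4%). A match is a run of letters and was not tested as a binding site.

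All 10 genes were higher in CD VEH and in WT JZL184 than in WT VEH, and lower in CD JZL184 than in CD VEH. The mean of CD JZL184 was nearer to that of WT VEH than to that of CD VEH for each of them, least so for Cdh5, which lay between the groups (139 CPM, beside 120 and 165 CPM). Summed over the 10 genes, the level was 627 to 638 CPM in WT VEH, 841 to 910 CPM in CD VEH, 925 to 1052 CPM in WT JZL184 and 598 to 708 CPM in CD JZL184. The sums of CD JZL184 thus enclosed those of WT VEH, and both groups lay below every mouse of the other two. The share of counts from genes of the mitochondrial genome split the groups in the same way, at 39.4% to 41.2% in WT VEH, 43.5% to 44.7% in CD VEH, 45.0% to 46.6% in WT JZL184 and 36.4% to 40.1% in CD JZL184. With these genes left out of the library sizes, 9, 10 and 10 of the genes were called in the first 3 comparisons below, the numbers also found with them in, and any other part of this share in the result was not tested.

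**Figure D1:**
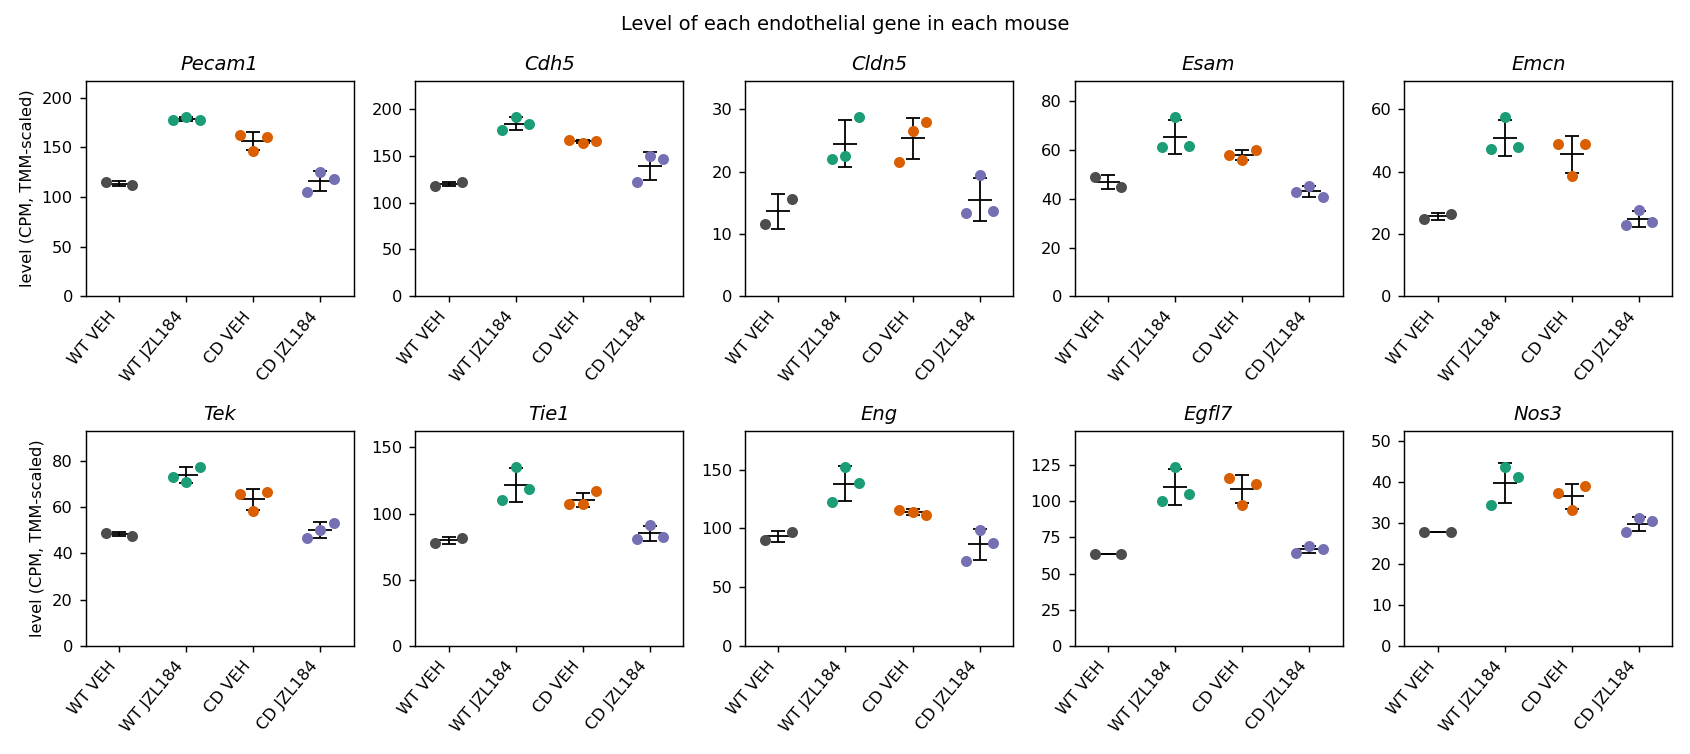
Level of each of the 10 genes (y axis, CPM after TMM scaling, from 0) in each of the 11 mice by group (x axis), with 1 point per mouse, a bar for the group mean and whiskers of 1 SD. The points of CD VEH and WT JZL184 sit above all points of WT VEH in every panel, for Emcn at 38.7 CPM or more against 26.5 CPM or less.

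Among the junction genes, Cdh5 was at 118 and 121 CPM in the WT VEH mice C and D, and at 167, 164 and 166 CPM in the CD VEH mice A, C and E. It was at 177, 191 and 184 CPM in the WT JZL184 mice A, B and D and at 121, 149 and 146 CPM in the CD JZL184 mice A, C and E. Mouse A of CD JZL184 lay at the WT VEH level and its 2 group mates between WT VEH and CD VEH. Pecam1 was at 116 and 112 CPM in WT VEH, at 163, 146 and 161 CPM in CD VEH, at 178, 181 and 177 CPM in WT JZL184 and at 105, 125 and 118 CPM in CD JZL184. Its WT JZL184 mice were the 3 highest of all, and CD JZL184 overlapped WT VEH.

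Cldn5, the tight-junction claudin, was at 11.6 and 15.6 CPM in WT VEH, at 21.6, 26.5 and 28.0 CPM in CD VEH, at 22.0, 22.6 and 28.8 CPM in WT JZL184 and at 13.3, 19.5 and 13.7 CPM in CD JZL184. CD VEH and WT JZL184 overlapped for this gene, as did WT VEH and CD JZL184. Esam was at 49.0 and 44.8 CPM in WT VEH, at 58.1, 55.9 and 60.1 CPM in CD VEH, at 61.1, 73.6 and 61.7 CPM in WT JZL184 and at 42.8, 45.5 and 40.8 CPM in CD JZL184. Its 3 CD JZL184 mice reached from below to within the WT VEH range.

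Among the receptors, Tek was at 48.8 and 47.6 CPM in WT VEH, at 65.4, 58.2 and 66.5 CPM in CD VEH, at 73.0, 70.8 and 77.5 CPM in WT JZL184 and at 46.5, 50.1 and 53.3 CPM in CD JZL184. Tie1 was at 78.0 and 81.8 CPM in WT VEH, at 107, 107 and 117 CPM in CD VEH, at 111, 135 and 119 CPM in WT JZL184 and at 80.8, 91.7 and 82.5 CPM in CD JZL184. Both kinase receptors thus followed the same order of groups, with WT JZL184 above CD VEH in every mouse for Tek and overlapping it for Tie1. Eng was at 89.9 and 96.7 CPM in WT VEH, at 116, 114 and 112 CPM in CD VEH, at 123, 153 and 139 CPM in WT JZL184 and at 72.5, 98.7 and 87.8 CPM in CD JZL184. The CD JZL184 mice spread more widely for Eng than the WT VEH mice and enclosed them.

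Egfl7, the secreted factor, was at 63.7 and 63.4 CPM in WT VEH, at 116, 97.6 and 112 CPM in CD VEH, at 99.8, 124 and 105 CPM in WT JZL184 and at 64.4, 69.2 and 66.6 CPM in CD JZL184. Emcn was at 24.9 and 26.5 CPM in WT VEH, at 49.0, 38.7 and 49.0 CPM in CD VEH, at 47.2, 57.5 and 47.7 CPM in WT JZL184 and at 22.8, 27.6 and 23.8 CPM in CD JZL184. For both genes the lowest CD VEH mouse was mouse C, which still lay far above WT VEH. Nos3 was at 27.9 CPM in both WT VEH mice, at 37.5, 33.2 and 39.2 CPM in CD VEH, at 34.4, 43.9 and 41.3 CPM in WT JZL184 and at 27.8, 31.2 and 30.5 CPM in CD JZL184.

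CD VEH mice were compared with WT VEH mice to ask how the deletion alone relates to the endothelial genes. In this comparison 9 of the 10 genes rose and none fell, beside 15.0% of all tested genes called higher and 15.4% called lower (edgeR's quasi-likelihood test, Benjamini-Hochberg adjusted p under 0.05 over all 11319 genes). The largest differences were those of Cldn5 (1.86-fold, log2 0.89 ± 0.19 SE), Emcn (1.77-fold, log2 0.83 ± 0.12) and Egfl7 (1.71-fold, log2 0.77 ± 0.10), with edgeR adjusted p of 0.00769, 0.0027 and 0.00162. Pecam1, Cdh5 and Tie1 rose by between 0.46 and 0.47 on the log2 scale (adjusted p 0.00378, 0.00452 and 0.00556 in edgeR), and Tek by 0.40 (0.00593), Nos3 by 0.39 (0.016) and Esam by 0.31 (0.0228). Eng, the remaining gene, had a log2 difference of 0.29 with a 95% interval of 0.03 to 0.55 and an edgeR adjusted p of 0.0813. The median log2 difference of the 10 genes was 0.46, and that of all tested genes was 0.01. Every CD VEH mouse lay above both WT VEH mice for all 10 genes, which 32.5% of the tested genes also showed. Without WT VEH mouse C the number called fell to 3 (Pecam1, Egfl7 and Emcn), while all genes called in either direction went from 1694 higher and 1746 lower to 385 in all. The median of the 10 was 0.44 without WT VEH mouse C, which leaves 1 mouse in that group. Without CD VEH mouse A, the mouse with the high red-cell genes, 8 of the 10 and 1930 of 11321 genes in all were called, and the median of the 10 was 0.45.

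CD JZL184 mice were compared with CD VEH mice to ask what the drug did in mice with the deletion, and the CD VEH mice are the same as in the comparison above. All 10 genes fell, beside 17.0% of all tested genes called lower and 16.8% called higher. Emcn was lowest relative to CD VEH at 0.544-fold (log2 -0.88 ± 0.11 SE, edgeR adjusted p 0.00201), followed by Cldn5 at 0.613-fold (log2 -0.71 ± 0.17, 0.00933) and Egfl7 at 0.616-fold (log2 -0.70 ± 0.09, 0.00201). Esam and Pecam1 both fell by 0.43 on the log2 scale, Eng by 0.40, Tie1 by 0.38 and Tek by 0.34, with edgeR adjusted p between 0.00249 and 0.0143. Nos3 fell by 0.30 (0.0269) and Cdh5 by 0.25 (0.0256), the smallest of the 10 differences, and the 2 genes also had the largest adjusted p in edgeR. The median was -0.42 for the 10 genes and -0.00 for all tested genes. Every CD JZL184 mouse lay below every CD VEH mouse for all 10, which 27.3% of the tested genes also showed. Without CD VEH mouse A, 7 of the 10 and 2098 of 11321 genes in all were called. Cdh5, Eng and Nos3 then had log2 differences of -0.24, -0.38 and -0.27 with edgeR adjusted p of 0.0772, 0.0507 and 0.0873. The difference of Cdh5 was -0.16 (edgeR adjusted p 0.0889) without CD JZL184 mouse A.

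**Figure D2:**
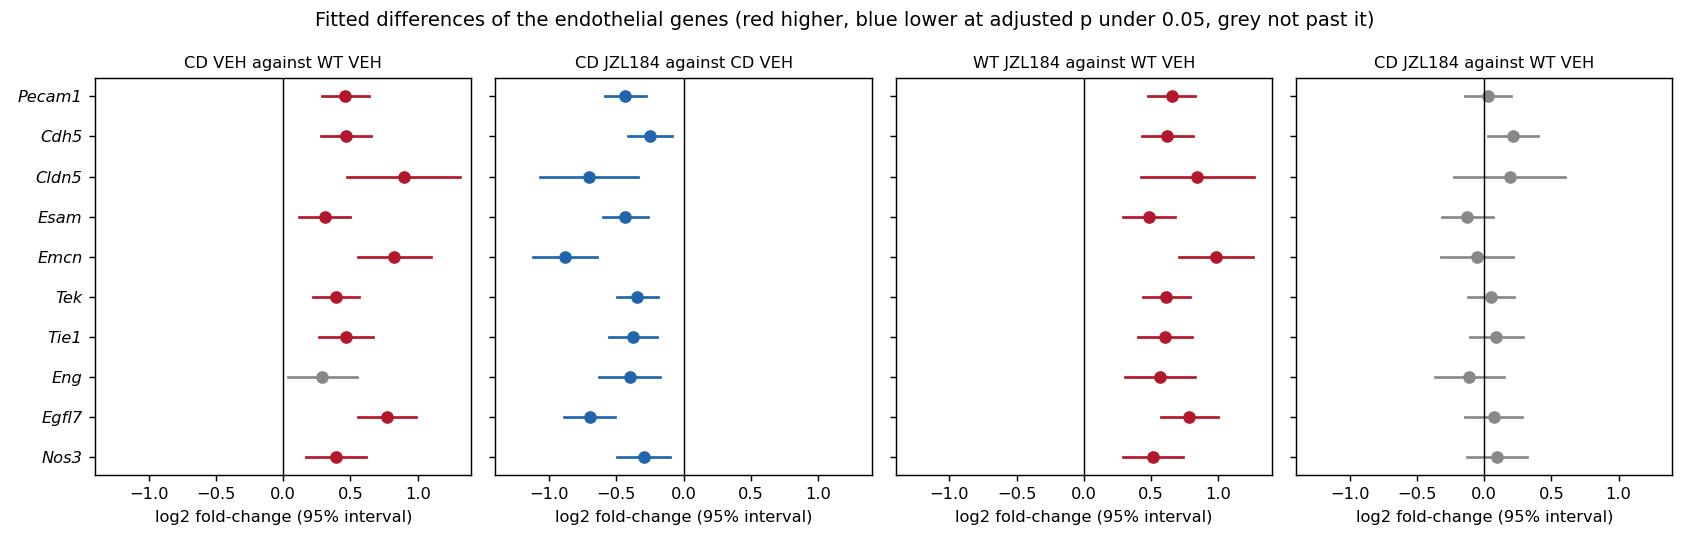
Fitted log2 fold-change (x axis) of the 10 genes (y axis) in 4 comparisons, with points for the estimate and lines for its 95% interval, red for higher, blue for lower and grey for not called in edgeR. The points lie to the right of 0 for CD VEH and for WT JZL184 against WT VEH (Eng is grey in the former), to the left for CD JZL184 against CD VEH, and all are grey for CD JZL184 against WT VEH.

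WT JZL184 mice were compared with WT VEH mice to ask what the drug did without the deletion, and the WT VEH mice are shared with the genotype comparison. All 10 genes rose, beside 15.4% of all tested genes called higher and 14.0% called lower. Emcn rose 1.98-fold (log2 0.98 ± 0.13 SE, edgeR adjusted p 0.00126), Cldn5 1.79-fold (log2 0.84 ± 0.19, 0.00975) and Egfl7 1.72-fold (log2 0.79 ± 0.10, 0.00124). The other 7 genes rose by 0.48 (Esam) to 0.65 (Pecam1) on the log2 scale, with edgeR adjusted p between 0.00118 and 0.00728. The median was 0.62 for the 10 genes and -0.00 for all tested genes. Every WT JZL184 mouse lay above both WT VEH mice for all 10, as 27.4% of the tested genes did. Without WT VEH mouse C, 7 of the 10 and 558 of 11321 genes in all were called, and the median of the 10 was 0.62. Eng, Cldn5 and Nos3 then had edgeR adjusted p of 0.0738, 0.107 and 0.0558.

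The drug's effect was thus upward in WT mice and downward in CD mice, and the difference between the effects was tested itself in the same model. It was called for all 10 genes, beside 26.2% of all tested genes called in this direction. The effect in CD minus that in WT was -1.86 ± 0.17 (SE) for Emcn, -1.55 ± 0.26 for Cldn5 and -1.48 ± 0.13 for Egfl7 on the log2 scale. It was between -1.08 (Pecam1) and -0.81 (Nos3) for the other genes, and the edgeR adjusted p lay between 6.80e-05 and 0.000697 over the 10. All 10 remained called in each of the 21 alternatives run for this test.

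CD JZL184 mice were also set against WT VEH mice, and none of the 10 genes was called, beside 0.186% of all tested genes called in either direction. DESeq2 called none of the 10 either, with 105 of 11319 genes called in all, and 1 gene (Cdh5) had an unadjusted p under 0.05 in edgeR, as had 1062 of the 11319. The log2 difference of Cdh5 was 0.22 with a 95% interval of 0.03 to 0.40 (edgeR adjusted p 0.454). Those of the other genes lay between -0.12 (Esam, interval -0.31 to 0.07) and 0.19 (Cldn5, interval -0.23 to 0.60), and the interval of Cldn5 was the widest. For Emcn the difference was -0.05 (-0.32 to 0.21) and for Egfl7 it was 0.07 (-0.14 to 0.28). The groups overlapped for 9 genes, and the CD JZL184 mice lay above the WT VEH mice for Egfl7, by under 1 CPM at the nearest, a separation that 17.7% of the tested genes showed in this direction.

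Per kilobase of merged exons, Cdh5 had the highest level in WT VEH at 28.5 ± 0.61 CPM per kilobase (SD, n = 2), followed by Eng at 23.0 ± 1.19, Pecam1 at 18.2 ± 0.43 and Egfl7 at 17.8 ± 0.05. Esam was at 16.4 ± 1.03, Tie1 at 16.2 ± 0.54, Tek at 10.2 ± 0.18 and Cldn5 at 9.61 ± 2.03, while Nos3 at 6.75 ± 0.01 and Emcn at 4.75 ± 0.21 CPM per kilobase were the lowest. Neighbours in the middle of this order, Esam and Tie1 or Tek and Cldn5, differed by less than the SD of one of them. The order depends on the length used, since with the longest transcript Egfl7 (34.1) and Pecam1 (33.0) came before Cdh5 (30.0 CPM per kilobase).

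Within groups, after each group's mean was taken out, 42 of the 45 pairs of genes were positively correlated over the 11 mice, with a median Pearson r of 0.59, from -0.14 (Tek and Esam) to 0.92 (Cdh5 and Eng). With the group differences left in, the median was 0.92 and the range 0.75 to 0.98. The points share libraries, scaling and, in the second case, the 4 groups, so the values describe these mice. Against the mean of the other 9 genes, Tie1 and Pecam1 had the highest r (both 0.98) and Cldn5, the gene with the lowest counts, the lowest (0.86). The 5 tested genes outside the list whose log2 level followed the mean of the 10 most closely over the 11 mice were Shisa5 (r 0.99, within groups 0.92), Serping1, Nsg1, Gimap1 and Glmp, and 729 of 11309 genes had an r above 0.9. Serping1, which encodes the C1 inhibitor, averaged 59.2 CPM in WT VEH, 85.1 CPM in CD VEH, 95.4 CPM in WT JZL184 and 57.9 CPM in CD JZL184.

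Of 15 tested junction partners, whose counts are to be read against the shares of all genes given above for each comparison, 4 rose and none fell in CD VEH against WT VEH, 1 rose and 2 fell in CD JZL184 against CD VEH, and 7 rose and none fell in WT JZL184 against WT VEH. The 2 of 15 that fell in CD JZL184 are no larger a share than the 17.0% of all tested genes. The medians were 0.10, -0.05 and 0.30 on the log2 scale. The catenins that tie VE-cadherin to actin and to its membrane turnover were among those not called in the genotype comparison, with log2 differences of 0.05 for Ctnnb1, -0.12 for Ctnna1 and 0.03 for Ctnnd1 (edgeR adjusted p 0.685, 0.238 and 0.758). These catenins also serve N-cadherin in cardiomyocytes. Ctnna1 was the 1 junction partner that rose in CD JZL184 against CD VEH, by 0.22 (edgeR adjusted p 0.029), where Cdh5 fell. Ptprb, the endothelial phosphatase that acts on Tie2 and VE-cadherin, rose by 0.50 with the drug in WT mice (0.00353), and had an edgeR adjusted p of 0.105 in CD VEH against WT VEH, where it was 0.19 higher. The 4 that rose in CD VEH were Gja4 (0.71), a gap-junction connexin, Jam3 (0.49), F11r (0.35) and Afdn (0.28).

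Of 19 tested ligands and effectors of these receptors and of Nos3, 12 rose and 1 fell in CD VEH against WT VEH, 1 rose and 12 fell in CD JZL184 against CD VEH, and 13 rose and 1 fell in WT JZL184 against WT VEH, with medians of 0.35, -0.38 and 0.54. Angpt1, the activating Tie2 ligand that mural cells make, was not called in any of the 3 comparisons, with log2 differences of 0.19, 0.06 and -0.26. Angpt2, the ligand that endothelial cells release, fell by 0.53 in CD JZL184 (edgeR adjusted p 0.0173), rose by 0.56 in WT JZL184 (0.0239) and differed by -0.01 in CD VEH against WT VEH (0.955). Acvrl1, the kinase receptor that works with endoglin, rose by 0.35 in CD VEH (0.0144) in edgeR. Bmpr2, the type II receptor of the same pathway and the 1 gene of the list called the other way in these comparisons, fell by 0.44 in CD VEH (0.0041), rose by 0.28 in CD JZL184 against CD VEH (0.0129) and fell by 0.25 in WT JZL184 (0.0323) in edgeR. It was singled out after its values were seen. The targets of the pathway, Id3 and Id1, rose by 0.89 and 0.70 in CD VEH against WT VEH. They fell by 0.86 and 0.94 in CD JZL184 against CD VEH, with edgeR adjusted p between 0.00182 and 0.00706 over both comparisons. Cav1, the caveolin that binds and holds back the nitric oxide synthase, averaged 152 CPM in WT VEH, 241 CPM in CD VEH, 249 CPM in WT JZL184 and 167 CPM in CD JZL184, the order of groups that Nos3 had.

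Of 16 general endothelial genes, 11 rose in CD VEH, 13 fell in CD JZL184 against CD VEH and 14 rose in WT JZL184, and none moved the other way, with medians of 0.37, -0.40 and 0.57. Of 10 capillary genes, 8 rose, 9 fell and 8 rose in the same comparisons (medians 0.67, -0.66 and 0.78), led in CD VEH by the transcription factors Meox2 (1.06) and Tcf15 (0.96), the fatty acid carrier Fabp4 (0.76) and Gpihbp1 (0.71), which carries lipoprotein lipase to the capillary lumen. Of 8 arterial genes, 5 rose, 3 fell and 7 rose (medians 0.44, -0.31 and 0.59). The lists share some genes, so their counts are not separate observations. Gja4 and Gja5 are both arterial genes and junction partners, and Ptprb is both a general endothelial gene and a junction partner. Of 6 tested venous and endocardial genes, 1 rose, 1 fell and 2 rose (0.18, -0.39 and 0.46), and the 1 that rose in CD VEH was Ephb4 (0.48). For CD VEH and CD JZL184, 1 of 6 is near the 15.0% called higher and the 17.0% called lower among all tested genes. Of 4 tested lymphatic genes, 2 rose in CD VEH and 1, Prox1, which cardiomyocytes also express, fell by 0.68. In CD JZL184 against CD VEH 3 of them fell and 1 rose, and in WT JZL184 against WT VEH 2 rose and 1 fell.

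**Figure D3:**
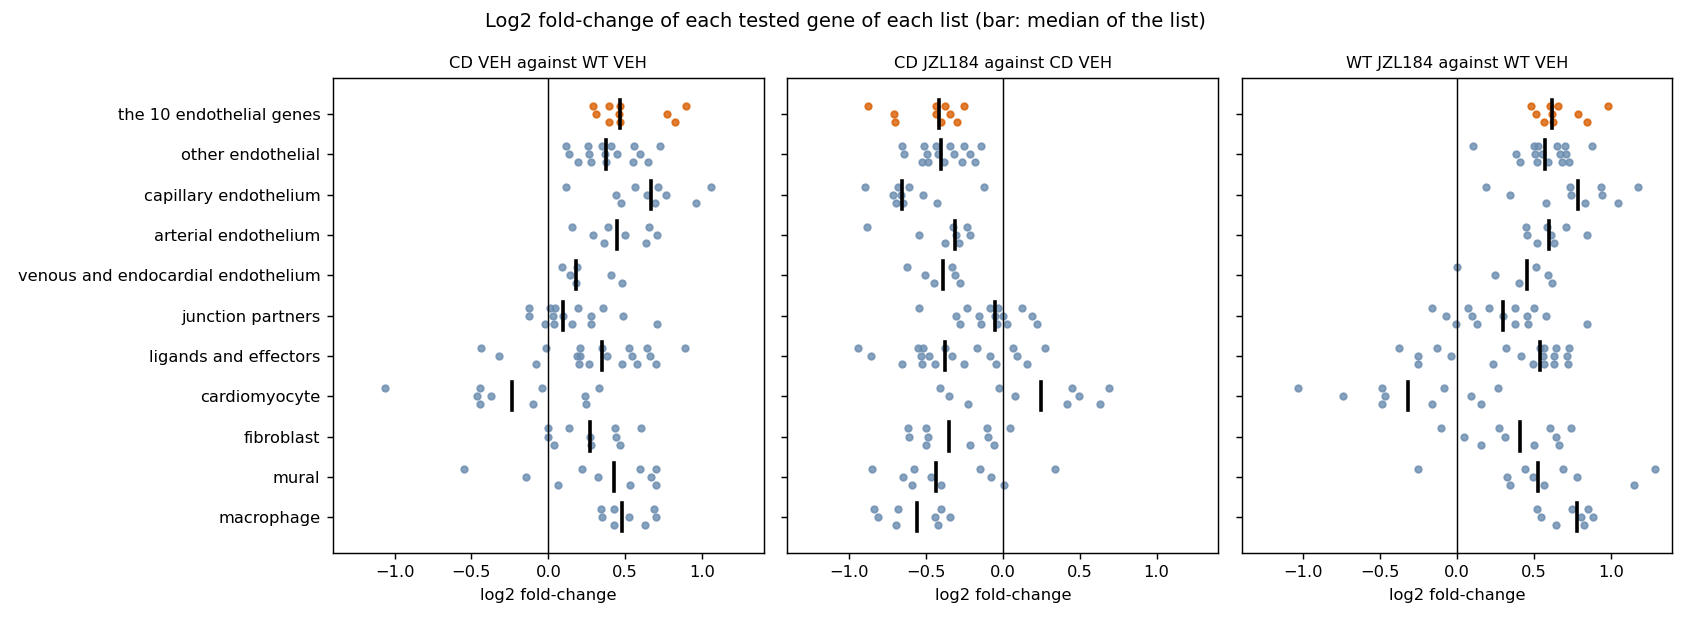
Log2 fold-change (x axis) of each tested gene of 11 lists (y axis) in 3 comparisons, with 1 point per gene and a bar at the median of the list. The medians of the 10 genes stand at 0.46, -0.42 and 0.62, those of the capillary genes at 0.67, -0.66 and 0.78, and those of the cardiomyocyte genes on the other side of 0, at -0.23, 0.25 and -0.32.

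In a bulk sample, fewer cells of a type and less RNA per cell cannot be told apart, so the markers of other heart cells are given beside these results. The 10 cardiomyocyte genes, which include Ttn, Actn2 and Myh6 of the sarcomere, summed to 51384 to 51394 CPM in WT VEH, 42617 to 46702 CPM in CD VEH, 35342 to 47285 CPM in WT JZL184 and 49015 to 52090 CPM in CD JZL184. Of them, 4 fell and 1 rose in CD VEH, 4 rose and 2 fell in CD JZL184 against CD VEH, and 5 fell and none rose in WT JZL184. The 1 of 10 that rose in CD VEH and the 2 of 10 that fell in CD JZL184 are near the 15.0% and 17.0% of all tested genes. Ttn, Actn2, Myh6 and Atp2a2 fell in CD VEH (by 1.07, 0.46, 0.44 and 0.37 on the log2 scale), whereas Myoz2 rose by 0.33 there and fell by 0.41 in CD JZL184 against CD VEH. Myl2 fell by 0.35 in the latter and was 0.25 higher in CD VEH without being called. Atp2a2, Myoz2 and Myl2 were picked for mention with their values known. The sum, of which Myh6 (15117 CPM) and Atp2a2 (10086 CPM) were the largest parts in WT VEH, was high in the 2 groups in which the endothelial genes were low. Their part in the endothelial result was not tested.

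Of 10 mural genes (pericytes and smooth muscle), 6 rose and 1 fell in CD VEH, 5 fell and 1 rose in CD JZL184 against CD VEH, and 8 rose and none fell in WT JZL184. The gene that went the other way in CD VEH and in CD JZL184 was Abcc9. The sum of the mural genes was 966 to 972 CPM in WT VEH, 1088 to 1241 CPM in CD VEH, 1215 to 1268 CPM in WT JZL184 and 908 to 947 CPM in CD JZL184. Of 8 macrophage genes, 5 rose in CD VEH, all 8 fell in CD JZL184 against CD VEH and all 8 rose in WT JZL184, with sums of 277 to 290, 361 to 466, 247 to 281 and 361 to 604 CPM in WT VEH, CD VEH, CD JZL184 and WT JZL184. Of 10 fibroblast genes, 4 rose, 5 fell and 6 rose in the 3 comparisons, and none was called the other way. Dcn, Lum, Tcf21 and Dpt were called in all 3, with differences of 0.43, -0.49 and 0.60 for Dcn. The fibroblast sum was 1670 to 1685 CPM in WT VEH, 1783 to 2037 CPM in CD VEH, 1881 to 2362 CPM in WT JZL184 and 1473 to 1711 CPM in CD JZL184. Abcc9 was picked for mention with its values known. The called mural, macrophage and fibroblast genes thus went the way of the 10 genes in all 3 comparisons, with Abcc9 as the exception. Of all tested genes, 15.0%, 17.0% and 15.4% were called in the direction of the 10 genes. The 1 of 10 mural genes that went the other way is no larger a share than the 15.4% called lower and 16.8% called higher. Of the 10 fibroblast genes, 6, 5 and 4 were not called, among them Col1a1 at -0.00, 0.05 and -0.11. Platelets express Pecam1 and Esam too, and of their 3 tested genes 1, Pf4, was called, with differences of 1.08, -1.04 and 0.89 in the 3 comparisons, while Gp1ba was at -0.21, 0.26 and -0.34. The sum of all 6 platelet genes was 12.7 to 12.9 CPM in WT VEH, 17.9 to 31.4 CPM in CD VEH, 13.8 to 21.9 CPM in WT JZL184 and 11.2 to 15.3 CPM in CD JZL184. Of 5 red-cell genes, all 5 fell in CD JZL184 against CD VEH, beside 17.0% of all tested genes called lower. None of them was called in CD VEH or WT JZL184 against WT VEH. Their medians were 1.77, -2.17 and 0.84 in the 3 comparisons, with mouse A of CD VEH far above the others as given above. None of 7 lymphocyte genes and none of 5 adipocyte genes passed the filter. The sums of the lymphocyte and adipocyte genes were at most 4.48 and 2.35 CPM. None of these lists was tested as a cause of the endothelial result.

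Set against the summed level of the 16 general endothelial genes in the same mouse, the means of Cldn5, Emcn and Egfl7 varied most between the groups relative to each gene's own level. Egfl7 was at 7.64% to 7.86% of that sum in WT VEH, 9.91% to 11.1% in CD VEH, 8.62% to 10.2% in WT JZL184 and 8.13% to 8.25% in CD JZL184. Emcn was at 2.98% to 3.28% in WT VEH, 3.93% to 4.89% in CD VEH, 3.92% to 4.75% in WT JZL184 and 2.88% to 3.29% in CD JZL184. For these 2 genes both CD VEH and WT JZL184 lay above the other two groups in every mouse. Both genes were picked from the values of these same groups. The share of all tested genes that show this on the ratio scale was not computed. Cldn5 was at 2.05% to 2.79% in CD VEH and 1.39% to 1.94% in WT VEH, and overlapped in the other groups. Pecam1 was at 13.8% to 13.9% in WT VEH and 14.8% to 16.1% in CD VEH. The means of Cdh5 had another order, at 14.1% to 15.1% in WT VEH and with the highest mean in CD JZL184 (17.0%). Its CD JZL184 mice, at 15.3% to 17.9%, enclosed those of CD VEH at 15.9% to 16.6%. Nos3 also had its highest mean in CD JZL184 (3.66%, beside 3.62% in CD VEH), and these groups overlapped. The means of Tek varied least on the relative scale, with Tek at 5.85% to 5.89% in WT VEH and 5.91% to 6.64% in CD VEH. The ratios were not tested.

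**Figure D4:**
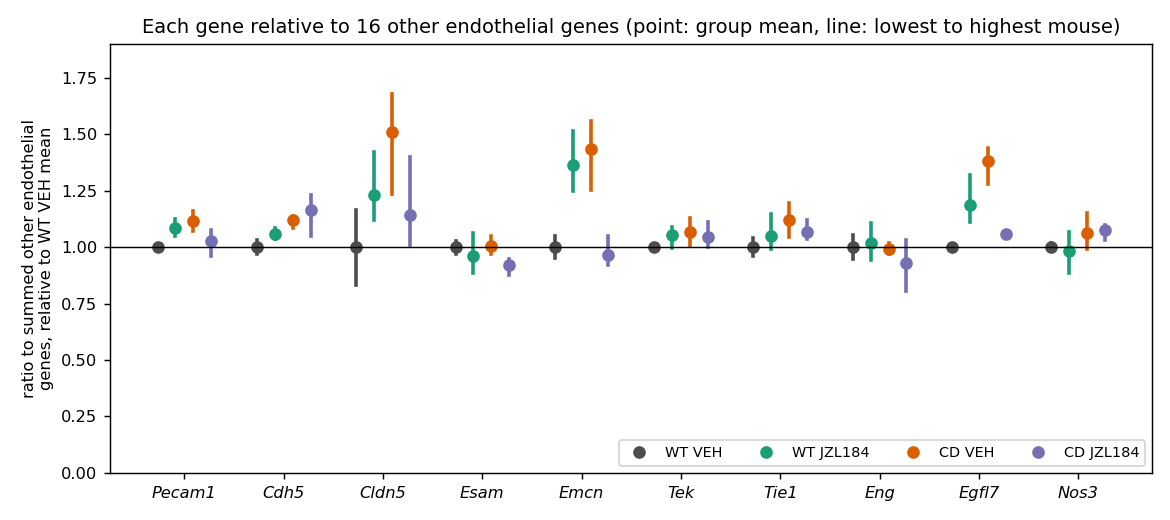
Ratio of each gene to the summed level of 16 other endothelial genes, divided by the WT VEH mean (y axis, 1 is the WT VEH mean), by gene (x axis) and group (colour), with points for group means and lines from the lowest to the highest mouse. Emcn and Egfl7 stand above 1 in CD VEH (4.49% and 10.7% of the sum, against 3.13% and 7.75% in WT VEH), and Esam stands below 1 in CD JZL184 (at most 5.41%, against at least 5.55% in WT VEH).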

How the data were processed

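Ventricle RNA of 11 mice was sequenced on an Illumina machine. Salmon 0.7.2 with the Ensembl 85 annotation (GRCm38) was run by the authors, tximport gave gene-level values, and the deposited table holds these estimated counts, not normalized, for each mouse. Column names give the group plus a letter absent from the labels, and 0 columns had no group.

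After rounding, these went into edgeR 4.0.16 under R 4.3.3 with limma 3.58.1, using TMM factors and the quasi-likelihood test, with all groups in 1 model. A gene needed a mean log2 CPM of 1 or more. The biological coefficient of variation common to all genes was 9.13%. Log2 levels had a prior count of 2. GENCODE release 21 matched 22238 of 22608 identifiers. The study used DESeq2 on the same matrix, and DESeq2 1.42.0 was an alternative, beside other scaling, filters, offsets and each mouse left out. The steps were tested on simulated counts. The genes, the lists and the rule for naming genes (all 10 members, their direct partners and at most 4 genes a list by size of the genotype difference) were chosen with earlier results of these data known. Genes most like the 10 were ranked by correlation. Motifs were searched on both strands.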

Additional observations from a re-analysis of the deposited data

Results flagged for a closer look

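The effect of JZL184 differed between the genotypes for all 10 genes by the test of that difference in edgeR, with adjusted p between 6.80e-05 and 0.000697. On the log2 scale, the effect in CD minus the effect in WT was -1.08 for Pecam1, -0.87 for Cdh5, -1.55 for Cldn5, -0.91 for Esam and -1.86 for Emcn. It was -0.96 for Tek, -0.98 for Tie1, -0.97 for Eng, -1.48 for Egfl7 and -0.81 for Nos3. In each case the 3 WT JZL184 mice lay above both WT VEH mice and the 3 CD JZL184 mice lay below the 3 CD VEH mice. Of all tested genes, 27.4% showed the former and 27.3% the latter, and 26.2% were called lower in the test of the difference. The difference is made of the same mice as the effects in each genotype and is no further evidence for them.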

How the results depend on the processing

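Over 22 alternatives, the number of the 10 genes called stayed within 1.5 times the reported one in 4 of the 5 comparisons. The exception was CD VEH against WT VEH, with 3 called without WT VEH mouse C and 10 without CD JZL184 mouse A as the lowest and highest. The cause was not tested, and with a single mouse left in WT VEH that mouse is assumed to vary like the other groups. Esam was not called in this comparison with an offset for gene length (log2 0.18, edgeR adjusted p 0.0955), and Eng was called with the compared groups alone (0.00985). Beside the losses given above, without CD VEH mouse E and without WT VEH mouse D Esam (edgeR adjusted p 0.0707 and 0.168) and Nos3 (0.0566 and 0.0847) were not called there, Esam was not called without CD VEH mouse A (0.0597), and Eng was called without CD JZL184 mouse A (0.0424). In CD JZL184 against CD VEH, Cdh5 and Nos3 were not called without CD JZL184 mouse A (0.0889 and 0.0984) or CD VEH mouse E (0.0766 and 0.113), nor was Nos3 without CD JZL184 mouse E (0.0629), in edgeR. In CD JZL184 against WT VEH, where nothing was called, some signs turned. Emcn was at 0.03 with a GC offset, and with each mouse left out in turn Pecam1 lay between -0.03 and 0.10, Cldn5 between -0.01 and 0.42, and Emcn between -0.14 and 0.00. Of 1090 values recomputed for single genes, 1055 kept direction and side of the threshold, 28 were no longer called, 2 became called and 5 turned sign. No paired analysis was possible by replicate number because the columns carry none of the replicate numbers of the labels. The letters of the columns do recur across groups, with A, C and E in both CD VEH and CD JZL184. Whether mice that share a letter belong together is not given in the sources used here, and a fit matched by letter was not run.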
